A study of Mus musculus with 2 samples.

Results

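The regions described here are 911 windows of 1 kb on chromosomes 1 to 19 in which the RNA signal was lower in the JXO library than in the OXJ library. They were chosen from 2472353 windows by a mean level in OXJ of at least 1 and a log2 ratio of JXO over OXJ of -0.5 or less. The deposited tracks cover only part of the genome, and 34147 windows had signal in either library. The level is the mean read depth over the bases of a window, both strands together, on the authors' scale of 50000000 aligned reads. In all 10190 windows reached that OXJ level, and the 911 were 8.94% of them. The median log2 ratio of the 10190 windows was 0.38, so on the deposited scale the usual window had more signal in JXO. On that scale 4073 of them (40.0%) had a ratio of 0.5 or more. Other scales between the libraries moved all ratios by -0.18 to -0.53, so this direction depends on the scale. Since the ratio chose the windows, the ratios and levels below describe them and carry no test.

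Both libraries came from mouse embryo fibroblasts (MEFs), the cells that grow out of a dissociated embryo, of female embryos at 13.5 dpc. JXO had a JF1 mother and a TgOG2 father, and OXJ had a TgOG2 mother and a JF1 father. JF1 is an inbred strain of the molossinus subspecies. TgOG2 (OG2) is a line of CBA/CaJ and C57BL/6J descent homozygous for the GOF18ΔPE-EGFP transgene, in which Pou5f1 sequences that act in germ cells drive a green fluorescent protein, so embryos of both crosses carry 1 copy. The head and internal organs were taken out before the carcass was plated, 1 embryo gave 1 line, and passage 2 or 3 was used. There was 1 library per cross. A difference between JXO and OXJ therefore cannot be told apart from a difference between 2 embryos or 2 cultures, and in such mixed cells fewer cells of a type cannot be told apart from less RNA per cell. Intervals are 95% counting intervals on pairs of reads (200 bases), exact Poisson for levels and exact binomial for ratios, and PCR copies are not independent molecules.

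Genomic imprinting leaves a gene active on the chromosome from 1 parent only. Imprinted genes often lie in clusters under a shared control region whose DNA methylation is set in the egg or sperm. The Dlk1-Dio3 cluster of chromosome 12, for example, makes the protein Dlk1 from the paternal chromosome and the non-coding RNAs Meg3, Rian and Mirg from the maternal one. In a reciprocal cross the strain of the active copy changes while the parent of origin stays the same. Read depth alone, as analysed here, does not show from which copy the RNA came.

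The windows fall into a few very deep stacks of reads and a large number of shallow places, and the sequences under the stacks are shown first because they hold nearly all of the signal. The 5 deepest windows held 97.6% of the OXJ signal of all 911. They lie at 3 places on chromosomes 13 and 2. In the sequences below, read 5′ to 3′ on the strand of the RNA from mm9, capitals mark bases with at least 50% of the depth of the deepest base in OXJ, and the printed bases have at least 10% of it.

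Il31ra intron, chr13:113368386-113368550, (−) strand: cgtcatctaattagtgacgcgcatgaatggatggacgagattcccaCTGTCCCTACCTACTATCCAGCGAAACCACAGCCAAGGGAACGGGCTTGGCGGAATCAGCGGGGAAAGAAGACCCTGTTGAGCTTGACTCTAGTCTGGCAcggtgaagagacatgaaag
Antisense to Jarid2, chr13:44965266-44965389, (−) strand: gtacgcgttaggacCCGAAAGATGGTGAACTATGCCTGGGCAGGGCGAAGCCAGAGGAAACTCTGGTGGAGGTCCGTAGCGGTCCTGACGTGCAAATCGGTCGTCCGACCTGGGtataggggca
Antisense to Atf2, chr2:73705939-73706084, (+) strand: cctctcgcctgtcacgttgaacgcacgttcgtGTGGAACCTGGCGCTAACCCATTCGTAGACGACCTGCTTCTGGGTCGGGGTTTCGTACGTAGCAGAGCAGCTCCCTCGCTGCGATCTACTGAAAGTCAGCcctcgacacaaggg

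The capitals of all 3 read as stretches of the 28S ribosomal RNA, the large RNA of the big ribosomal subunit, which the Ribominus step was used to remove. That reading rests on textbook knowledge. No ribosomal RNA sequence was among the files used here, so the match was not computed. In the intron of Il31ra, which encodes an interleukin receptor, the deepest base had a scaled depth of 316407 in JXO and 562842 in OXJ. The whole 1 kb window had a mean of 31829 (95% interval 31703 to 31956) in JXO, and the OXJ mean was 56595 (56436 to 56754), a log2 ratio of -0.83. The 2 windows antisense to Jarid2, a gene of the Polycomb machinery, had 20530 and 37477 (log2 ratio -0.87), and 8057 and 13059 (-0.70), in JXO and OXJ. The 2 windows antisense to Atf2, a transcription factor gene, had 2227 and 3810 (-0.77), and 1038 and 1882 (-0.86). The ratios of these 5 windows lay from -0.87 to -0.70, and their signal sat in narrow stacks. They were spread more widely by measures that give the depth of a stack less weight, from -0.34 to 0.06 by the mean of log2 values and from -4.14 to 1.30 by the median over 100 bp bins. In the Il31ra window 79.2% of the OXJ signal was in the deepest 100 bases, and reads covered 31.1% of the window. No word of 100 bases sampled from these 5 windows had a second exact copy in the reference genome. The words were taken every 100 bases and no ribosomal RNA sequence was searched. This search therefore does not show that the reads come from these places. Because of these stacks the 911 windows held 35.0% of all OXJ reads in the tracks of chromosomes 1 to 19 and 17.5% of the JXO reads.

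In contrast, 2 of the windows with the lowest ratios had no read in JXO at all and more than 20 read pairs in OXJ. Their sequences are shown with the same use of capitals.

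Intergenic window, chr1:169270555-169270651, (−) strand: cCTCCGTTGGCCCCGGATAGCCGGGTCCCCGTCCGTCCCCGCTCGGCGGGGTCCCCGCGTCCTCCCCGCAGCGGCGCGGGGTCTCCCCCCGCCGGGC
Intergenic window, chr7:67641346-67641495, (+) strand: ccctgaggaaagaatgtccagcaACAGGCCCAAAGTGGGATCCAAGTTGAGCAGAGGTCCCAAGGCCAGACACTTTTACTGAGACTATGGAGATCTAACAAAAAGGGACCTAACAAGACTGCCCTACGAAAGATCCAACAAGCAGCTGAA

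The chromosome 1 window had 46 read pairs in OXJ, a mean level of 5.29 (3.90 to 7.10). The 97 bases printed are 83.5% G and C, and whether they come from ribosomal RNA was not computed. Intergenic here means only that the window was given to no gene. An annotated microRNA gene, mmu-mir-2134-1 at chr1:169270500-169270555 on the (−) strand, lies in this window and meets the printed bases at its edge. The level of the whole window in JXO was 0, for which the Poisson interval allows up to 0.481. A word of 100 bases from this window occurred 3 times in the genome. The chromosome 7 window had 23 pairs and a level of 2.66 (1.69 to 3.996) in OXJ and none in JXO. Of the other windows, 4 had no JXO read either, at OXJ levels of 1.03 to 1.10, or 9 to 10 pairs, in introns of Mgmt, Pde4d, Ppfia1 and Tbc1d2b. In total 6 of the 911 windows were without JXO signal. The 4 windows next lowest by ratio, antisense to Plekhb1 and in introns of Ddx4, Rcor1 and Spats2, had 9 to 19 pairs in OXJ and 1 or 2 in JXO.

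Most of the 911 windows were shallow. The OXJ level had a median of 1.56 and quartiles of 1.197 and 2.56, and the JXO level had a median of 0.847. The middle window thus rested on 13 read pairs in OXJ and 6 in JXO. In 594 windows (65.2%) the OXJ level was below 2, in 113 it was 5 or more, and in 51 it was 10 or more. The log2 ratio ran from -5.75 to -0.50 with a median of -0.82, and 311 windows had a ratio of -1 or less. In 195 windows (21.4%) the counting interval of the ratio lay wholly below 0, so for the other windows these 2 libraries cannot show a difference at this depth. The 195 are not shown to differ either, because the rule chose the windows by this same ratio, on the deposited scale. After the 5 stacks, the next deepest windows were an exon window of Meg3 with 44.0 (39.5 to 49.0) in JXO and 69.9 (64.4 to 75.6) in OXJ, an intron window of Adm, which encodes the vasoactive peptide adrenomedullin, with 43.3 and 67.2, and an intron window of Igf2r with 32.5 and 47.9. An exon window of Peg10 followed with 24.1 and 43.2, and an exon window of Dlk1 with 16.5 and 41.0.

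**Figure D1:**
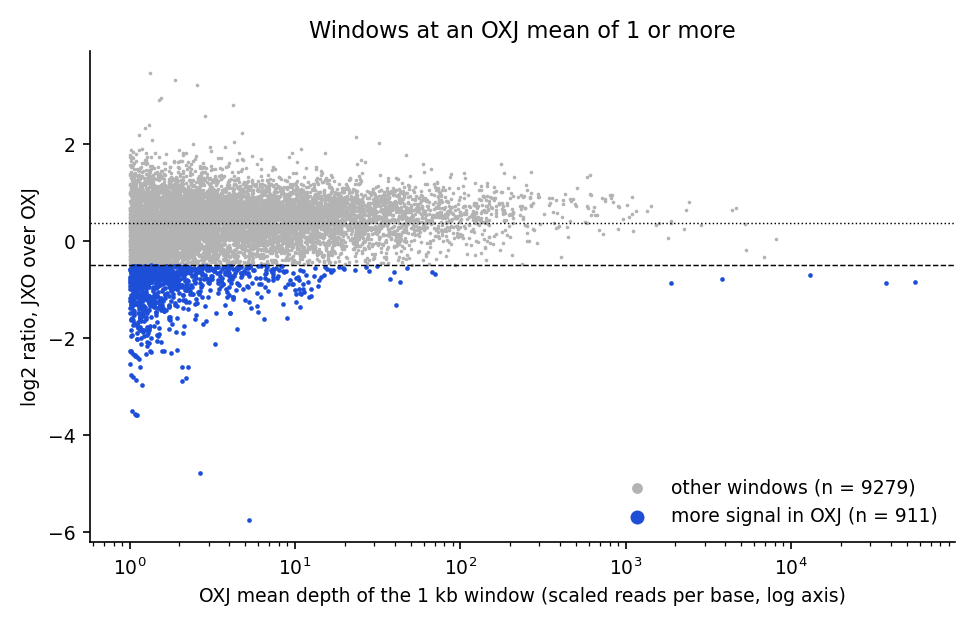
Log2 ratio of JXO over OXJ against the OXJ mean depth (log axis) for the 10190 windows at an OXJ level of 1 or more; each point is 1 window, blue points are the 911 windows with more signal in OXJ, the dashed line is the limit of -0.5 and the dotted line the median of 0.38. The blue points crowd at the left, at low depth, and 5 of them stand alone above a depth of 1000.

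The share of windows that passed the ratio limit fell as the level rose. It was 17.8% of 3332 windows at an OXJ level of 1 to 2, 7.20% at 2 to 5, 4.10% at 5 to 10, 2.26% at 10 to 50 and 1.23% of 570 windows at 50 or more. At a level of 1 to 2 the share was alike in exon windows (41 of 237, 17.3%) and intron windows (502 of 2784, 18.0%). At 10 to 50 it was 1.07% of exon windows and 2.91% of intron windows. At the limits themselves the windows inside and outside hardly differed. The 3 windows just inside the ratio limit had ratios of -0.5009 to -0.5001, in Arid2, in 0610009E02Rik and in no gene. The 3 just outside had ratios of -0.4997 to -0.4980, in Larp4, Atxn1 and Cd44, and the Cd44 window had levels of 65.9 and 93.1. Just inside the level limit were windows with OXJ levels of 1.001 to 1.003 and ratios of -1.49, -0.78 and -0.83, the last in Dnmt1. Just outside were 3 windows given to no gene, at 0.9986 to 0.9998 with ratios of -2.74, -0.62 and -0.86.

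**Figure D2:**
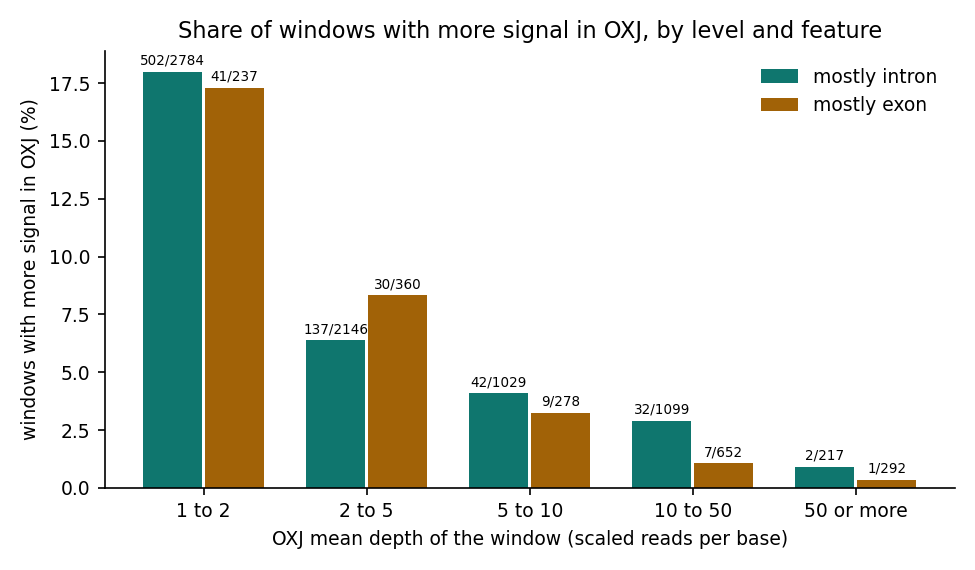
Percent of windows with a log2 ratio of -0.5 or less among windows lying mostly in introns (green) or mostly in exons (brown), by OXJ mean depth; the labels give the number with more signal in OXJ over the number of windows. The bars drop from 18.0% and 17.3% at a depth of 1 to 2 to below 1% at 50 or more.

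The rule did not use the annotation. Most bases lay in an exon of a gene on the strand of the signal in 88 windows (9.66%), in no gene in 95 (10.4%), on the opposite strand of a gene in 13 (1.43%), and in an intron in all the rest (78.5%). Among the other 9279 windows at an OXJ level of 1 or more, 70.7% were intron and 18.7% exon windows. The contrast was larger for windows that touch an exon at all, 28.4% against 65.7%. It narrowed among windows at a level of 1 to 2, where 19.9% against 34.8% touched an exon, and remained at a level of 5 or more, with 52.2% against 89.4%. Windows and their neighbours share transcripts, so these shares are descriptions of these 2 libraries. A window was given to a gene on the strand with more OXJ signal, so most of its signal is sense by construction. In windows of 1 gene strand the median sense share in OXJ was 100% for the 911 windows and 97.5% for the others. At a level of 1 to 2 it was 100% in both. The median G and C content was 45.8%, against 45.6% for the others, and 3.73% of the windows against 4.47% held a sampled word with a second exact copy in the genome.

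The windows lay partly side by side. Joined over at most 1 window in between, they made 688 runs, of which 560 were single windows, 93 had 2 windows and 7 had 5 or more. Neighbours of these windows that reached an OXJ level of 1 were themselves among the 911 in 298 of 1019 cases (29.2%), and neighbours of other windows in 721 of 13157 (5.48%). Chromosome 13 had the highest share, 133 of 671 windows (19.8%), of which Atxn1 and Pde4d below hold a large part, and chromosome 19 the lowest, 3 of 91 (3.30%).

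The longest runs lay in Grb10, which encodes an adaptor protein that binds insulin and insulin-like growth factor receptors and restrains growth. It is expressed from the maternal copy in most tissues. The gene lies on chromosome 11 from 11830511 to 11938686 on the (−) strand. Of its 107 windows at an OXJ level of 1 or more, 44 were among the 911. A run of 25 windows over 29 kb, chr11:11888001-11917000, had a mean level of 5.11 (4.82 to 5.42) in JXO and 8.98 (8.62 to 9.36) in OXJ, a log2 ratio of -0.80 (-0.92 to -0.71). The second run, 13 windows over 15 kb at chr11:11919001-11934000, had 4.35 (3.98 to 4.75) and 8.41 (7.92 to 8.93), a ratio of -0.93 (-1.11 to -0.80). Together they cover the stretch from 5.19 to 50.2 kb behind the start of the gene, in which 38 of 46 windows passed the limit. The other 8 windows of the stretch also had ratios below 0, the highest being -0.12.

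The rest of Grb10 did not have this ratio. In the 57 windows farther from the start, 6 passed the limit and the median ratio was 0.01. In the 4 windows nearest the start none did, and the first window had 130 in JXO and 142 in OXJ. Over the exons of Grb10 the level was 614 (609 to 620) in JXO and 486 (481 to 491) in OXJ, a ratio of 0.34 (0.32 to 0.36), or -0.05 with the median ratio of all windows set to 0. The lower JXO signal was thus seen in the introns near the start and not over the exons. This contrast within the gene does not depend on the scale between the libraries, which moves all windows alike.

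**Figure D3:**
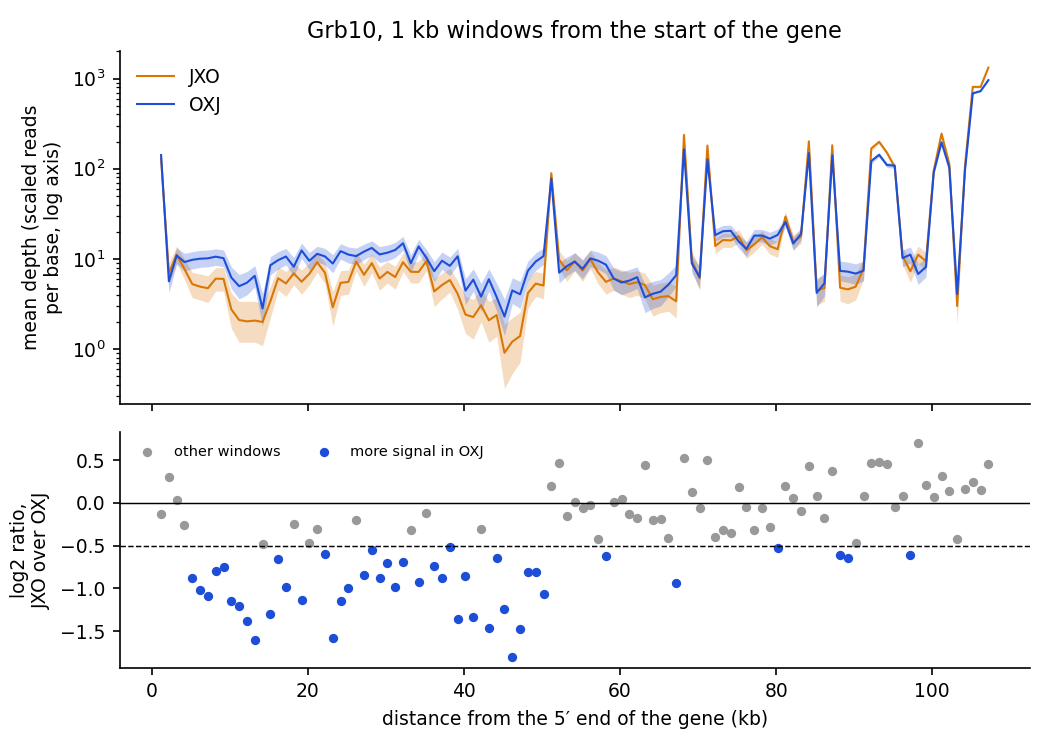
Mean depth on both strands (top, log axis, with 95% counting intervals as bands) of JXO (orange) and OXJ (blue), and log2 ratio (bottom), in the 1 kb windows of Grb10 at an OXJ level of 1 or more against the distance from the 5′ end of the gene; blue points passed the limit of -0.5 (dashed). From 5.19 to 50.2 kb every ratio lies below 0, and beyond it the points scatter around a median of 0.01.

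The second place with long runs was the Dlk1-Dio3 cluster on chromosome 12. Dlk1, a transmembrane protein related to Notch ligands that holds back differentiation, lies at chr12:110691033-110701546 on the (+) strand. Of its 7 windows at an OXJ level of 1 or more, 6 passed the limit. Along the gene the levels of these 6 in JXO and OXJ were 1.96 and 3.03, 1.21 and 2.59, 3.90 and 6.88, 3.83 and 6.54, 5.04 and 10.8, and 16.5 and 41.0. Their ratios ran from -0.60 to -1.31, and their shared direction was set by the rule. The remaining window went the other way, with 1.18 in JXO and 1.04 in OXJ, a ratio of 0.16. Over the exons of Dlk1 the level was 5.17 (4.51 to 5.88) in JXO and 11.6 (10.6 to 12.6) in OXJ, a ratio of -1.15 (-1.39 to -0.94). Here, unlike in Grb10, the exons had the direction of the windows. Of the 6 windows 3 lay mostly in exons, so the exon level shares reads with them.

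From the start of Meg3 to the end of Mirg, 41 of 198 windows (20.7%) passed the limit, while the (+) strand level of the whole stretch was 19.2 in JXO (30733 pairs) against 16.9 in OXJ (30488 pairs). The windows with more signal in OXJ stood in groups between deeper windows without that direction. Meg3, a non-coding RNA, had 4 of 28, the space up to Rian 4 of 26, Rian, the host of a row of small nucleolar RNAs, 13 of 58, the space up to Mirg 19 of 71, and Mirg, the host of a cluster of microRNAs, 1 of 15. The longest run, 13 windows at chr12:110928001-110944000 in the space between Rian and Mirg, had 1.59 (1.37 to 1.83) in JXO and 2.93 (2.66 to 3.24) in OXJ, a ratio of -0.85 (-1.14 to -0.64). The 8 windows of a run near the start of Rian, chr12:110847001-110858000, surround deeper windows that go the other way, so that the run as a whole had 3.81 and 4.09, a ratio of -0.10 (-0.32 to 0.12). A run of 4 windows past Meg3, chr12:110815001-110821000, had 0.995 and 1.70. The paper reports extensions of Meg3, Rtl1as and Rian, transcribed from the maternal allele, in the spaces between Meg3 and Mirg. The run past Meg3 lies within the reported Meg3 extension, and the longest run of this stretch within the reported Rian extension. Over exons Rian had 233 in JXO and 179 in OXJ, a ratio of 0.38 (0.34 to 0.41). Between Meg3 and Mirg, 70 annotated microRNA and small nucleolar RNA genes lie in a window at an OXJ level of 1 or more. Of these genes 8 (11.4%) lie in one of the 911 windows, against 20.7% of the windows of this stretch and 8.94% of all windows. Over the small RNA genes themselves the ratio of these 8 had no single direction, for example -1.93 at Mir300, -1.57 at Mir370 and -0.17 at Mir341, but 1.17 at a SNORD113 gene and 1.501 at Mir544. The reads of 100 bases come from longer RNA and do not measure the mature small RNAs.

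**Figure D4:**
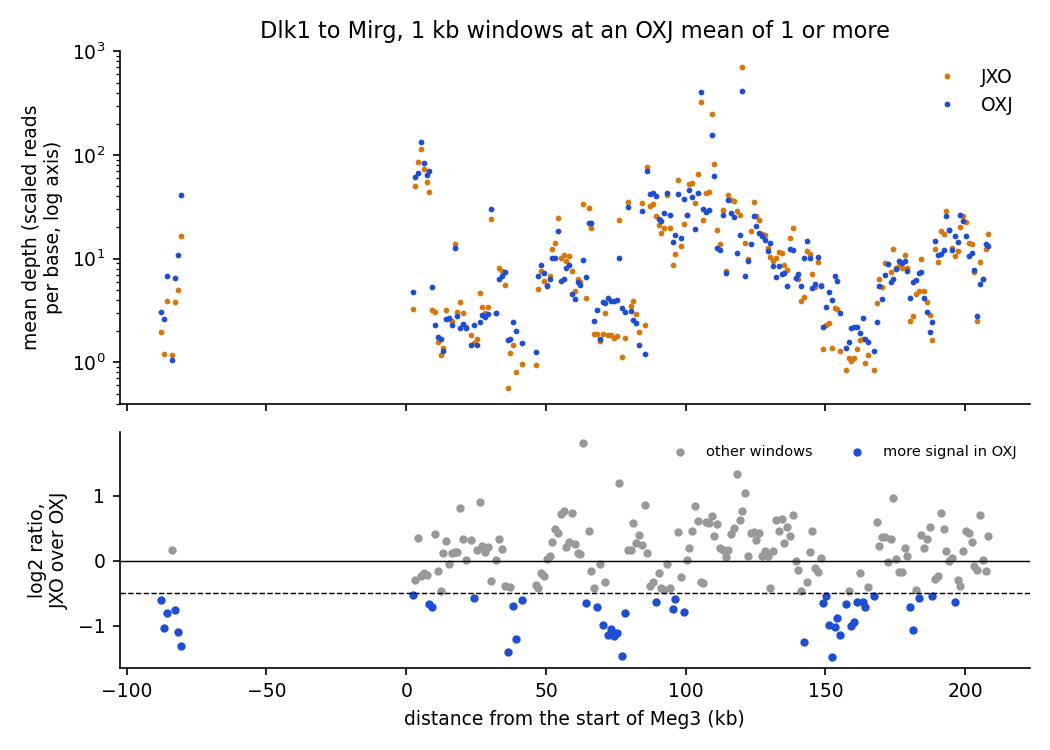
Mean depth (top, log axis) of JXO (orange) and OXJ (blue) and log2 ratio (bottom) in the 1 kb windows of the Dlk1 to Mirg region at an OXJ level of 1 or more against the distance from the start of Meg3; each point is 1 window and blue points in the lower panel passed the limit of -0.5 (dashed). The Dlk1 windows at the left lie almost all below the limit, and from Meg3 on groups of such windows alternate with windows of the opposite direction.

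Of the 911 windows 803 lay in 292 genes, most of them in introns, and the exons of the same genes were measured beside them. A single one lay in 163 of these genes, and 34 genes held 5 or more. Atxn1, which encodes the transcriptional co-repressor ataxin 1, held 54 of its 164 windows, all in introns, with JXO levels of 0.106 to 2.10 (median 0.710) and OXJ levels of 1.02 to 3.65 (median 1.46). Over its exons the levels were 21.8 (20.4 to 23.2) and 21.0 (19.7 to 22.4). Atp10a, a phospholipid flippase gene within the Prader-Willi and Angelman region, held 33 of 84, with JXO levels of 0.282 to 10.5 (median 0.695) and OXJ levels of 1.01 to 15.7 (median 1.53), and its longest run was 7 windows at chr7:65940001-65947000 with 0.835 (0.611 to 1.12) and 1.88 (1.54 to 2.25). Over exons it had 45.8 and 42.5. Pde4d, a cyclic AMP phosphodiesterase gene of over 1 Mb, held 30 of 116 with medians of 0.548 and 1.198, while over its exons the JXO level was 13.7 and the OXJ level 9.44. As deposited, none of these 3 exon ratios was below 0. With equal totals the exon ratio was -0.13 in Atxn1 and -0.07 in Atp10a, and with the median ratio of all windows set to 0 it was -0.33 and -0.28, while Pde4d stayed above 0 under both.

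Akap13, which encodes an anchoring protein of protein kinase A, held 18 of 149 windows. Bcl2l1, the gene of the survival protein Bcl-xL, held 13 of 37, Pvt1, a non-coding RNA gene next to Myc, 13 of 43, and Rian 13 of 58. Evl, an actin regulator of the Ena/VASP family, held 10 of 35, Ppfia1, a liprin of cell adhesion sites, 10 of 45, Fchsd2, an F-BAR protein of endocytosis, 9 of 23, and Jarid2 9 of 37. As deposited, the exon ratios of these 8 genes ran from 0.00 in Fchsd2 to 0.51 in Bcl2l1. Beside the run of 8 windows in Rian, Pvt1 had a run of 5 (1.02 in JXO and 1.69 in OXJ) and Bcl2l1 one of 4 (1.29 and 2.02). Unc5b, a netrin receptor gene, had a run of 5 (2.33 and 3.84). Of 61 genes with at least 3 intron windows among the 911 and an exon level of 1 or more in OXJ, 51 had an exon ratio above 0 and 2, Ddx4 and Dlk1, one of -0.5 or less. The count above 0 followed the scale between the libraries: it was 40 with equal totals, 24 with the median ratio set to 0 and 17 with equal totals without the 10 deepest windows. Their median exon ratio was 0.35. Over all 903 genes at that exon level the median was 0.44, and 54 (5.98%) had a ratio of -0.5 or less. Exon windows among the 911 were most frequent in Mll2, a histone methyltransferase gene, with 6, and Stard9, a kinesin gene, with 5.

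**Figure D5:**
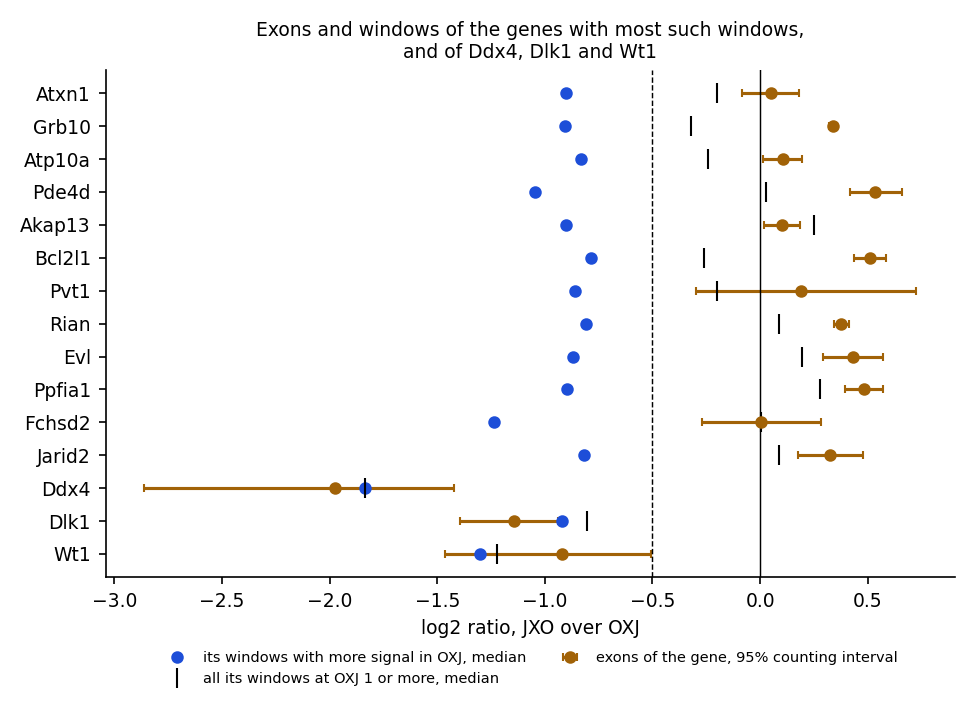
Log2 ratio of JXO over OXJ over exons (brown, with 95% counting intervals), median of the windows with more signal in OXJ (blue) and median of all windows at an OXJ level of 1 or more (black bar), for the 12 genes that hold most of those windows and for Ddx4, Dlk1 and Wt1. With values as deposited, the exon ratios of the 12 genes lie between 0.00 and 0.53, and in Ddx4, Dlk1 and Wt1 they lie at -1.97, -1.15 and -0.92.

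In genes over 50 kb the windows were more frequent toward the 5′ end. When each gene was divided into 5 equal parts from its start, 17.8%, 21.1%, 10.5%, 10.2% and 9.90% of the intron windows at an OXJ level of 1 or more passed the limit. The median OXJ level of those windows rose over the same 5 parts, from 1.75 to 2.89, and the part of level in the shares was not tested. Without Grb10 the shares were 16.6%, 18.5%, 9.67%, 10.2% and 9.86%. Without Grb10, Atxn1, Atp10a and Pde4d they were 14.6%, 17.3%, 7.69%, 7.84% and 6.84%, so the first 2 parts still had the higher shares.

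Beside Dlk1, a germ cell gene and a gonad and mesothelium gene had most of their windows among the 911 and an exon ratio of -0.5 or less. These exon levels share reads with the windows that the rule chose, so they are no separate observation. Ddx4, the RNA helicase of germ cells also named Vasa, had 5 of 5 windows among the 911. Their levels in JXO and OXJ were 0.673 and 3.26, 0.567 and 2.14, 0.503 and 1.05, 0.296 and 1.31, and 0.194 and 2.08. Over its exons, which hold most of this signal although introns fill most of each window, the level was 0.980 (0.595 to 1.47; 21 pairs) in JXO and 4.14 (3.38 to 5.03; 102 pairs) in OXJ, a ratio of -1.97 (-2.86 to -1.42). The other 4 germ cell markers of the list (Dazl, Pou5f1, Dppa3 and Nanos3) had no signal in the tracks of either library. The tracks cover only part of the genome, so these genes may lie outside them and are not shown to be silent. Wt1, a transcription factor gene of the kidney, gonad and mesothelium, had 4 of 5 windows, with 0.282 and 1.78, 0.548 and 1.58, 0.597 and 1.53, and 2.40 and 4.53. Over exons its level was 1.15 (0.872 to 1.51; 55 pairs) in JXO, against 2.27 (1.89 to 2.72; 122 pairs) for OXJ, a ratio of -0.92 (-1.46 to -0.51). Of the 8 markers of gonad, kidney and mesothelium, 2 had signal in the tracks, and their exon levels summed to 2.28 in JXO and 4.21 in OXJ.

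By list, and beside the 8.94% over all windows, 6 of 10 windows in germ cell and pluripotency genes passed the limit (Ddx4 with 5 and Klf4 with 1), and 7 of 12 in gonad, kidney and mesothelium genes (Wt1 with 4, Osr1 with 2 and Tcf21 with 1). The exons of Tcf21 had 1.13 and 1.94 and those of Osr1 3.77 and 4.65 in JXO and OXJ, with intervals of the ratio that include 0. Krt7, an epithelial keratin gene, had 3 of 11 windows, and exon levels of 6.72 and 9.31, a ratio of -0.47 (-0.67 to -0.28). Dcn, the matrix proteoglycan decorin of fibroblasts, had 3 of 8, and no other gene of the fibroblast and matrix list held any. Of 146 windows in Hox and other patterning genes 4 passed the limit, 1 each in Hoxa3, Hoxb3, Hoxd3 and Hoxd10. The cartilage and bone list had 1 of 31 (Col2a1), the neural list 1 of 11 (Sox2), the cell cycle list 1 of 10 (Ccnd1) and the skeletal muscle list 0 of 1. No window of the blood or endothelial lists reached an OXJ level of 1, and those genes may lie outside the tracks. Ror2, a receptor tyrosine kinase of Wnt5a, had 4 of 4 windows, but exon levels of 0.214 and 0.493 with a ratio interval of -2.69 to 0.14, and Clmn held none.

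Imprinted genes held windows in both lists. Of 583 windows in genes listed as maternally expressed 112 passed the limit (19.2%, in 11 genes). In genes listed as paternally expressed it was 18 of 278 (6.47%, in 9 genes), and over all windows 8.94%. The lists do not show that a gene is imprinted in these cells. Of the 11, the paper tabulates Grb10, Igf2r, Meg3, Mirg and Rian as maternally expressed in these MEFs, and not the others. It reports some known imprinted genes as biallelic in MEFs, and Dlk1 as biased to the paternal allele short of its cutoff. Grb10 and Atp10a held 77 of the 112. Without these 2 genes it was 35 of 392 (8.93%), close to the share over all windows, so the higher share of the list as drawn up rests on them. The rest include Ube3a with 72 windows, Nap1l4 with 36, Osbpl5 with 32 and Copg2 with 20, none of which passed. The paper tabulates Asb4, Cdkn1c and H19 too as maternally expressed, but not Ube3a, Nap1l4, Osbpl5 or Copg2. Igf2r had 6 of 44, Meg3 4 of 28, Rian 13 of 58 and Mirg 1 of 15, and Asb4, Cdkn1c and H19 none. The spaces up to Rian and Mirg, with 4 of 26 and 19 of 71, are outside the list. The share over tabulated genes alone was not computed. In JXO the maternal copy is that of JF1 and in OXJ that of OG2, and whether reads of both strains align alike to mm9 was not tested. The median ratio of all windows was 0.14 in the maternal list and 0.43 in the paternal list, and the median over exons was 0.31 and 0.62. Of the genes at an exon level of 1 or more in OXJ, 0 of 20 in the maternal list and 1 of 24 in the paternal list, Dlk1, had an exon ratio of -0.5 or less.

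Beside Grb10, Atp10a, Rian, Meg3 and Mirg, the maternal list had such windows in Igf2r with 6 of 44 and Pon2 with 5 of 21. Zim1 had 3 of 7, and Cd81, Gnas and Trappc9 had 1 each. Igf2r, the receptor that clears insulin-like growth factor 2, had member levels up to 32.5 in JXO and 47.9 in OXJ and exon levels of 73.3 and 81.1, a ratio of -0.14 (-0.20 to -0.09). Pon2, a paraoxonase gene, had windows at 0.414 to 1.09 in JXO and 1.04 to 1.92 in OXJ, but exon levels of 23.7 and 11.5, a ratio of 1.04. Ube3a, with 72 windows the third largest of the list, held none. Beside Dlk1, the paternal list had Sgce with 3 of 15, Peg10 with 2 of 9 and Inpp5f with 2 of 20. Igf2, Slc38a4, Peg3, Plagl1 and Airn had 1 each. Peg10, a gene derived from a retrotransposon, had 2 exon windows with 22.0 and 31.5, and 24.1 and 43.2, and exon levels of 58.4 and 69.7, a ratio of -0.25 (-0.32 to -0.19). Slc38a4, an amino acid transporter gene, had 1 window with 0.495 and 1.05 in JXO and OXJ, beside exon levels of 339 and 141. The lists were drawn up with results of these data known.

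The tracks hold 5720359 read equivalents of JXO and 5700081 of OXJ on chromosomes 1 to 19, out of 76712608 and 86369632 aligned reads, and they cover only part of the genome. A gene outside them was not measured. Of 13 fibroblast markers 3 lay inside: Col1a2 with exon levels of 583 in JXO and 388 in OXJ, Lum with 18.9 and 15.5, and Dcn with 22.9 and 25.9. No marker of blood, endothelial or epithelial cells on the marker list had signal in the tracks, which were 6, 5 and 6 genes. These may lie outside the tracks, and Krt7, an epithelial keratin gene not on that list, had signal. Markers of other lists had signal too. In JXO and OXJ the neural marker Nes had 340 and 155 and Sox2 1.27 and 1.22. The cartilage marker Col2a1 had 423 and 361 and Sox9 2.96 and 3.53.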

How the data were processed

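RNA of 1 JXO and 1 OXJ MEF line was sequenced from both ends after Ribominus treatment and dUTP strand marking, with 15 PCR cycles. The submitters' notes name CASAVA 1.9, TopHat 1.2.0 and mm9, and reads could align to up to 10 loci. The mm9 genome is of C57BL/6J, an ancestor of OG2 but not of JF1, and the tracks do not mark alleles. Per base, the authors scaled the read depth to 50000000 aligned reads, added 1, and deposited the log2 values as 1 track per strand and library. A single read over a base has a scaled depth of 0.652 (JXO) or 0.579 (OXJ).

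Depth was recovered from the log2 values, summed over both strands and averaged over windows of 1 kb, and ratios used a pseudocount of 0.1. The direction named forward held (−) strand RNA in 617 (JXO) and 615 (OXJ) of 640 coding genes. Genes are those of GENCODE M1, on a genome whose 19 chromosome lengths equal mm9. A window belongs to the gene on its strand with over 500 of its bases. Exon levels are on the strand of the gene. With 1 library per cross no test was made, and the rule was tested on simulated windows. Named are the 12 genes with most windows, the 10 longest runs, the 10 deepest and 10 lowest windows, those at the limits, and genes of the lists. Sequences were chosen after their values were seen. The windows, gene lists and naming rule were chosen with earlier results of these data known. Scripts ran in Python 3.11.15 (scipy 1.17.1, numpy 2.4.6, matplotlib 3.10.9, pandas 2.3.3). Allelotyping, RACE and ChIP-chip data were not used here.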

Additional observations from a re-analysis of the deposited data

How the results depend on the processing

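The scale between the libraries, the level minimum and the window size set how many windows are found. Equal totals moved all ratios by -0.18 and gave 1310 windows, a median ratio of 0 moved them by -0.39, and equal totals without the 10 deepest windows by -0.53. The windows numbered 1951 with the median ratio at 0 and 2582 with equal totals without the 10 deepest windows. They numbered 479 with a pseudocount of 1, 317, 113 and 51 with an OXJ minimum of 2, 5 and 10, 8298 with no minimum, 311 at a ratio limit of -1 and 271 as 2 kb windows. As a share of the windows tested, in the same order, these were 19.15%, 25.3%, 4.70%, 4.62%, 2.81%, 2.03%, 27.7%, 3.05% and 4.74%, and with the median over 100 bp bins the share was 16.0%.

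In the maternal list the count moved from 112 to 202 (median ratio at 0) and 248 (equal totals without the 10 deepest). It was 51 and 30 (minimum of 5 and 10), 404 (no minimum), 42 (limit of -1) and 46 (2 kb). Without Grb10 and Atp10a it was 35. That choice was made after seeing the data, as were leaving out genes in the shares along genes and the counts of exon ratios by scale. In the paternal list the count moved from 18 to 40, 62, 11 (pseudocount 1) and 11, 7 and 4 (minimum of 2, 5 and 10). It was 138 (no minimum), 6 (limit of -1) and 4 (2 kb).

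The 688 runs became 1233 (median ratio at 0), 1493 (without the 10 deepest), 381 (pseudocount 1), 219, 70 and 31 (minimum of 2, 5 and 10), 4930 (no minimum), 273 (limit of -1) and 200 (2 kb). The longest run, 25 windows, had 40 with equal totals, 46, 47, 10 with a minimum of 10, 6 at a limit of -1 and 15 when windows were shifted by 500 bases. With a minimum of 5, 15.04% of the windows lay in exons, 67.3% in introns and 14.2% in no gene. The cause of these moves was not tested beyond what each setting changes by its construction.

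Of 150 alternative ratios of named windows and runs, 3 changed sign: the window antisense to Jarid2 at chr13:44964001-44965000, with 0.0573 by the mean of log2 values and 1.30 by the median over 100 bp bins, and a window antisense to Atf2 with 0.33 by that median. Of 124 alternative exon ratios of 31 named genes, 23 changed sign, 5 with equal totals, 12 with the median ratio at 0 and 6 over the whole gene span, and all 23 began at ratios between -0.5 and 0.5. No paired analysis was possible because each cross has 1 library.

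Depth limits single windows: with a median of 13 pairs of reads in OXJ, 716 windows have a ratio interval that reaches 0, and with 1 library per cross neither embryo nor culture variation was measured.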
